A study of Mus musculus with 29 samples.

Results

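The genes described here are 41 genes of the lysosome and of autophagy, taken by name from a table of 55357 mouse genes and followed across the 10 groups of an RNA-seq series on cardiac fibroblasts. They were grouped into 10 roles: lysosomal membrane proteins (Lamp1, Lamp2, Laptm4a, Npc1, Mcoln1), cathepsins with the protective protein Ctsa (Ctsb, Ctsd, Ctsh, Ctsk, Ctsl, Ctss, Ctsz), glycosidases and lipid hydrolases (Gla, Glb1, Hexa, Gusb, Neu1, Asah1, Lipa), soluble cofactors and carriers (Grn, Psap, Npc2), the proton pump (Atp6v0d1, Atp6v1a, Atp6v1h, Atp6ap1), transcription factors (Tfeb, Tfe3), autophagy initiation (Ulk1, Becn1, Wipi1), ubiquitin-like conjugation (Atg5, Atg7, Atg12), ATG8 proteins (Map1lc3a, Map1lc3b, Gabarap, Gabarapl1) and autophagy receptors (Sqstm1, Optn). All 41 passed the filter on low counts in every fit.

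The libraries came from primary cardiac fibroblasts, the cells that make and remodel the matrix of the heart. Fresh young (YCF) and fresh aged (ACF) cells gave 3 libraries each. Cells of each age were also cultured for 48 h on 4 DECIPHER substrates, hybrids of hydrogel and heart extracellular matrix (ECM) that carry young (Y) or aged (A) ECM at a soft or stiff setting: SoftY, StiffY, SoftA and StiffA. There were 3 libraries of each cultured group, but only 2 of young cells on SoftY, which gives 11 cultured young and 12 cultured aged libraries. The sources used here give no strain, sex or age in months, no genetic change or agent is named for any group, and the libraries are not tied to animals, so that the p-values below measure the spread between these libraries. Library totals ran from 1192668 to 3275089 counts, and 10 CPM (counts scaled to library size) stood for 12 to 35 counts.

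The lysosome is the acidic compartment in which cells break down proteins, sugar chains and lipids. Its membrane carries a proton pump that keeps the interior acidic, and its hydrolases are made in the endoplasmic reticulum and carried to it by sorting receptors. In autophagy a double membrane grows around cytoplasm, is decorated with lipid-bound ATG8 proteins, takes up cargo through receptors such as p62 (Sqstm1) and fuses with the lysosome. TFEB and TFE3 are transcription factors that switch on many of these genes through a short promoter sequence, the CLEAR element, whose core is CACGTG. In the heart fibroblasts also use lysosomal cathepsins to digest collagen they have taken up.

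The promoter sequences are shown because the genes are commonly treated as 1 network through that element. A window from 250 bases before to 50 bases after each start was searched on both strands in RefSeq sequence of build GRCm38.p6. This is an older build than the mm39 of the counts, and no coordinate was carried between them. The table held 38 promoters of 33 of the 41 genes. It held none for Npc1, Ctsb, Ctsh, Asah1, Atp6v1h, Becn1, Atg12 and Map1lc3a. CACGTG was found in 11 of the 38 promoters (28.9%) and in 7.15% of all 32851 promoters. The longer forms GTCACGTG and TCACGTGA, which both hold CACGTG and can overlap each other, were found in 8 (21.1%) and 6 (15.8%) of the 38, against 2.25% and 0.974% of all promoters. A match is a description of the letters and not a bound site. The 9 members with one of the longer forms follow as windows of 100 bases around the matches, written 5′ to 3′ on the gene's strand, with every match in capitals: Ctsa (chr2:164833714-164833813, plus strand), Ctsd (chr7:142387873-142387972, minus strand), Gla (chrX:134601147-134601246, minus strand), Glb1 (chr9:114400983-114401082, plus strand), Mcoln1 (chr8:3500427-3500526, plus strand), Lamp1 (chr8:13159086-13159185, plus strand), Atg7 (chr6:114670917-114671016, plus strand), Atp6v0d1 (chr8:105566015-105566114, minus strand) and Atp6v1a (chr16:44139338-44139437, minus strand).
Ctsa: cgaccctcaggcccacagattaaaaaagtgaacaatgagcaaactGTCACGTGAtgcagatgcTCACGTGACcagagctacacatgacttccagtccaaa
Ctsd: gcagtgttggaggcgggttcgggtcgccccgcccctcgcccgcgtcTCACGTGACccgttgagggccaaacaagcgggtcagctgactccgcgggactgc
Gla: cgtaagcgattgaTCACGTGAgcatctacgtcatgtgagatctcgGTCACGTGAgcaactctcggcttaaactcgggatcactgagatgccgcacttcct
Glb1: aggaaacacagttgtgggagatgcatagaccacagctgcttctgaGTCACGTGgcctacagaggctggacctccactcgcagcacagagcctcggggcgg
Mcoln1: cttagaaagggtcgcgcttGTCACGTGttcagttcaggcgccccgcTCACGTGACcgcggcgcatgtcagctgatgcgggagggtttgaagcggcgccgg
Lamp1: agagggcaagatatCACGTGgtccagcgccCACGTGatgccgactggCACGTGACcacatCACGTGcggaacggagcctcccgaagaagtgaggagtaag
Atg7: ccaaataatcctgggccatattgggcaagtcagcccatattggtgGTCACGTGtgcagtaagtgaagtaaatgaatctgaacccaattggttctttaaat
Atp6v0d1: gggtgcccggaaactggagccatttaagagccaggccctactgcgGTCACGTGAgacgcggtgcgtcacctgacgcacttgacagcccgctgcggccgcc
Atp6v1a: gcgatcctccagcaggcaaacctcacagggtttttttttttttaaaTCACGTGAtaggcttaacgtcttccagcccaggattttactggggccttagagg
Over the whole promoters Ctsa, Ctsd, Gla and Mcoln1 carried 2 CACGTG cores each, of which Ctsd shows 1 in its window, and Lamp1 carried 4. The core at the centre of the Gla window began 194 bases before the start, while that of Atp6v0d1 began 3 bases before it.

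Levels below are CPM, that is counts over library totals scaled by TMM factors. They are not divided by gene length and are compared between libraries only. Changes are log2 fold changes ± SE, and p-values are those of edgeR's quasi-likelihood test with Benjamini-Hochberg adjustment over all genes tested. A gene is said to rise or fall only at an adjusted p under 0.05. Coordinates are of build mm39.

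The label of the cells was checked against markers. Fibroblast markers summed to 8604 to 9154 CPM in fresh young, 6822 to 7367 CPM in fresh aged and 24426 to 38516 CPM in cultured libraries. Markers of neutrophils, lymphocytes and cardiomyocytes summed to at most 12.5, 2.90 and 23.9 CPM in any library. Those of pericytes and smooth muscle summed to 11.7 to 24.4 CPM in fresh young, 5.91 to 7.91 CPM in fresh aged and 29.1 to 59.7 CPM in cultured libraries. The 16 myeloid markers summed to 233 to 235 CPM in fresh young, 416 to 471 CPM in fresh aged and 24.2 to 71.6 CPM in cultured libraries, and the 8 endothelial markers to 142 to 161, 185 to 196 and 65.7 to 182 CPM. Many lysosomal genes are strongly expressed in myeloid cells.

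One member did not follow its groups. Lamp1 (ENSMUSG00000031447, chromosome 8, 13209161 to 13225339) encodes a major glycoprotein of the lysosomal membrane. It measured 578, 169 and 136 CPM in the 3 fresh young libraries and 409, 371 and 709 CPM in the 3 fresh aged ones. Its SD within groups was 1.18 on the log2 scale, rank 5 among 9437 genes with a mean of at least 10 CPM, where the members' median was 0.142 and that of all these genes 0.222. The library names hold a letter for the substrate and a number, 1 to 3 for young and 4 to 6 for aged cells. The titles number replicates from 1 to 3 within each group, and the young SoftY library with the name number 3 is replicate 2 there, called library 2 below. Among the young libraries Lamp1 was lowest in each group in the one numbered 3, between 45.4 and 136 CPM. Among the aged ones it was highest in each group in the one numbered 6, between 189 and 709 CPM. 118 other genes had a correlation over 0.9 with Lamp1's deviation from its group mean across the 29 libraries, which share these numbers. Among the members Map1lc3a (0.69), Mcoln1 (0.66) and Gabarapl1 (-0.68) had the strongest ones. The sources used here do not say what these libraries share beyond the number. Counts of calls are therefore given with and without the libraries numbered 3 and 6, a choice made after the data were seen. Since it rests on Lamp1, no separate test of Lamp1 without them is given. The counts without them still include Lamp1 and the members that ran with it. The choice of libraries can itself shape the calls of those genes.

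**Figure D1:**
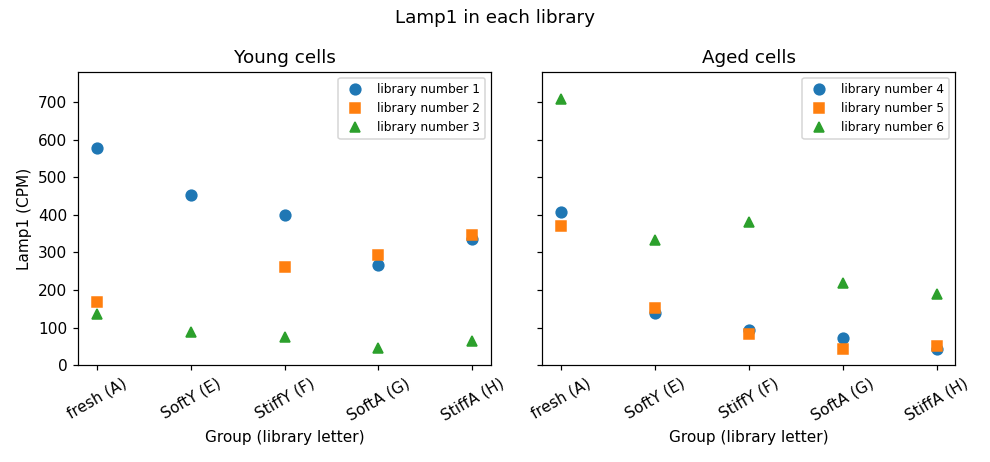
Lamp1 in CPM in each of the 29 libraries, young cells on the left and aged cells on the right, by group and by the number in the library name. Triangles mark numbers 3 and 6: the young ones lie between 45.4 and 136 CPM, lowest in every group, and the aged ones between 189 and 709 CPM, highest in every group.

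The first comparison set fresh ACF against fresh YCF, which asks how the lysosomal program differed with age before any culture. 26 of the 41 genes rose in aged cells and 1, Tfeb, fell, with a median log2 change of 0.50 over the members and -0.02 over all genes tested. 65.9% of the members were called, where 31.8% of all 11786 genes tested were (15.0% higher, 16.8% lower). In 31 members the 3 aged and 3 young libraries did not overlap, where 45.0% of all genes did not, in either direction. In 30 of the 31 members aged lay above young. Without the libraries numbered 3 and 6, 25 members rose, 24 of them among the calls above, and 22.9% of all genes were called.

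The cathepsins, the proteases of the lysosome, rose without exception, 8 of 8 with a median of 0.72. Ctss (ENSMUSG00000038642, chromosome 3, 95434097 to 95463715), a cysteine protease best known from antigen-presenting cells, measured 20.6, 15.6 and 19.7 CPM in young and 71.8, 76.6 and 68.9 CPM in aged libraries. Every aged library was more than 3 times as high as any young one, and the log2 change was 1.93 ± 0.15, adjusted p = 2.73e-07. Ctsh, an aminopeptidase, measured 44.7, 56.3 and 48.4 CPM in the young and 139, 155 and 145 CPM in the aged group (1.52 ± 0.11), again without overlap. Ctsk, the cathepsin that cleaves triple-helical collagen, went from 27.2, 24.0 and 33.4 to 69.7, 69.1 and 74.0 CPM (1.32 ± 0.15). Ctsb (ENSMUSG00000021939, chromosome 14, 63359911 to 63383373) measured 1664, 1622 and 1705 CPM in young and 2741, 2735 and 2652 CPM in aged libraries. Its groups were tight and far apart (0.67 ± 0.04, adjusted p = 2.08e-08). The aspartic protease Ctsd rose by 0.72 ± 0.07 and Ctsl by 0.32 ± 0.07, which missed the threshold when all 29 libraries shared 1 fit (adjusted p = 0.105).

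Among the other hydrolases 5 of 7 rose. Hexa, a subunit of β-hexosaminidase, measured 139, 133 and 138 CPM in the young and 245, 226 and 222 CPM in the aged group (0.72 ± 0.07). Gla (α-galactosidase A), Gusb (β-glucuronidase), Neu1 (sialidase) and Asah1 (acid ceramidase) rose by 0.45 to 0.58. The call did not extend to Glb1 (0.18 ± 0.16, adjusted p = 0.427), the β-galactosidase behind the staining used as a mark of senescence, with 67.4, 53.4 and 44.2 CPM in young and 73.0, 56.6 and 63.0 CPM in aged libraries. These 2 groups overlapped, as did those of Lipa, the lysosomal acid lipase (0.00 ± 0.09). The cofactors and carriers rose 3 of 3: Npc2, which hands on cholesterol, by 0.85 ± 0.06, progranulin (Grn) by 0.77 ± 0.07 and prosaposin (Psap) by 0.60 ± 0.05.

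The proton pump rose 4 of 4, by 0.50 to 0.65, with aged above young in all libraries of each gene. Of the membrane proteins Lamp2 (0.45 ± 0.07, adjusted p = 9.78e-05), needed for fusion and for chaperone-mediated autophagy, and the calcium channel gene Mcoln1 (0.37 ± 0.09) rose. Lamp1 (0.71 ± 0.40, adjusted p = 0.202) did not pass the test, and its libraries overlapped between ages.

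Among the genes of autophagy itself 4 of 12 rose. The cargo receptor Sqstm1 (ENSMUSG00000015837, chromosome 11, 50090193 to 50101655) measured 255, 247 and 253 CPM in young and 549, 602 and 579 CPM in aged libraries. It was thus 2.24-fold higher, with the smallest p among the members (1.16 ± 0.06, adjusted p = 3.48e-09). Atg7, the activating enzyme of ATG8 conjugation, measured 99.4, 105 and 83.2 CPM and 198, 168 and 164 CPM (0.84 ± 0.10), and was the 1 conjugation gene of 3 to rise. Of the ATG8 genes Gabarap (0.50 ± 0.07) and Map1lc3a (0.43 ± 0.15) rose, while Map1lc3b (0.16 ± 0.07, adjusted p = 0.0864) and Gabarapl1 (0.15 ± 0.11, adjusted p = 0.336) missed the threshold although their aged libraries all lay above the young ones. The initiation genes Ulk1, Becn1 and Wipi1 had values between -0.22 and 0.08 and no adjusted p under 0.089. Tfeb was sparse, at 5.85, 3.75 and 6.58 CPM in young and 1.66, 0 and 3.15 CPM in aged libraries, or 17, 13 and 14 against 4, 0 and 8 counts. Its fall (-1.70 ± 0.61, adjusted p = 0.0488) was lost with DESeq2 (adjusted p = 0.080), with upper-quartile scaling (adjusted p = 0.052), and without the libraries numbered 3 and 6 (adjusted p = 0.056) or any 1 of 5 of the 6 libraries. Tfe3 stood at 0.15 ± 0.10, adjusted p = 0.267.

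**Figure D2:**
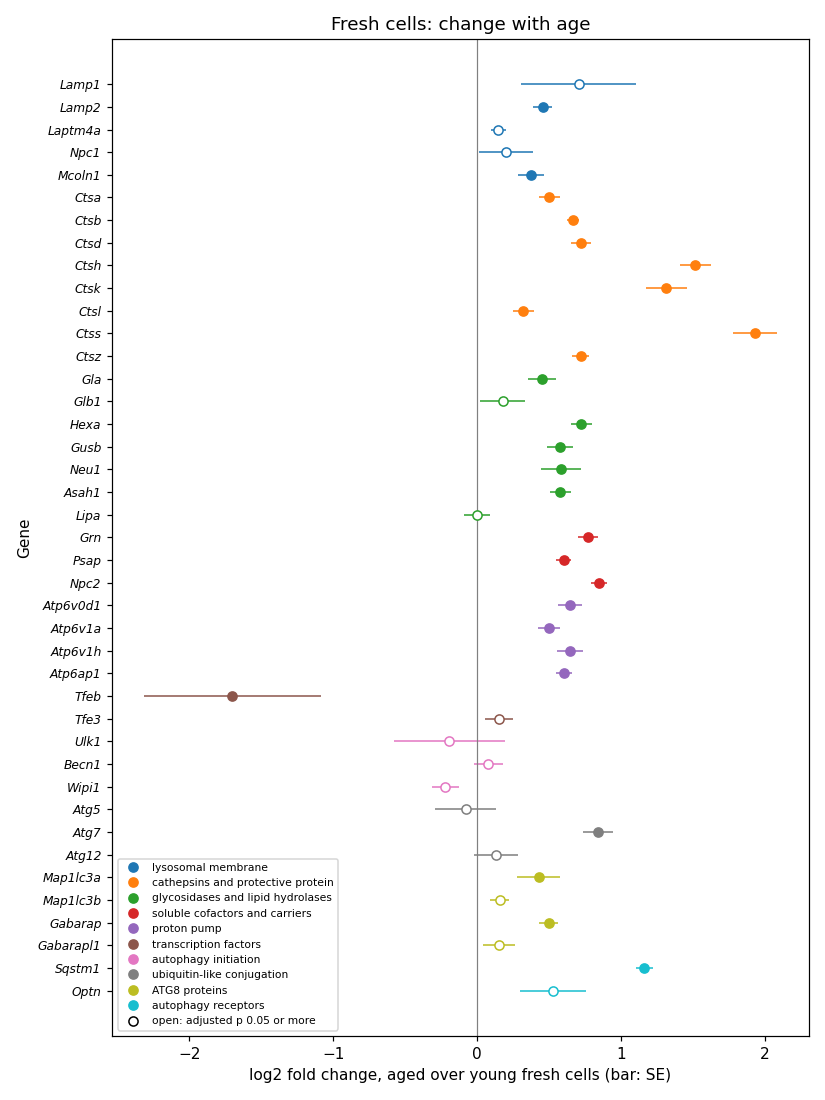
Log2 fold change of each of the 41 genes, aged over young fresh cells, with bars of 1 SE and points coloured by role. Open points have an adjusted p of 0.05 or more. The 8 cathepsins, 4 proton pump genes and 3 cofactors are all filled and to the right of 0, and Tfeb is the filled point on the left, at -1.70.

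Genes of the same pathway outside the members, from lists chosen by function, moved as follows, where 31.8% of all genes were called. 13 of 33 further lysosomal hydrolases rose and none fell at the threshold, among them the tripeptidyl peptidase Tpp1 (1.04 ± 0.06), acid α-glucosidase Gaa (0.99 ± 0.08) and the thioesterase Ppt1 (0.93 ± 0.08). 10 of 13 further proton pump subunits rose, among them Atp6v0a1 from 94.0 to 236 CPM (1.29 ± 0.08). Of 16 further membrane proteins 7 rose and 1, the glucocerebrosidase receptor Scarb2, fell (-0.56 ± 0.08). The fusion genes rose in 4 of 14. Autophagosome formation (2 higher and 2 lower of 26) and the further receptors and mitophagy genes (1 higher and 1 lower of 13) had few calls. In nutrient sensing 3 rose and 4 fell of 21, with the folliculin gene Flcn at -0.72 ± 0.11 and the small GTPase gene Rragd at 1.46 ± 0.25.

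Other genes moved alongside. 9 of 10 targets of the oxidative stress factor Nrf2 rose, with a median of 1.46 and Hmox1 at 2.90 ± 0.07. Sqstm1 is itself known as an Nrf2 target. Of the 10 fibroblast markers 3 rose and 6 fell, with a median of -0.60. The endothelial markers rose in 1 of 8, the 1 neutrophil marker tested rose, and 1 of 2 tested pericyte and smooth muscle markers fell. Of the 16 myeloid markers 11 were tested and 7 rose, among them Cd14 from 34.5 to 129 CPM and Cd68, a lysosomal membrane protein of macrophages, from 50.2 to 107 CPM. Their summed level was 233 to 235 CPM in young and 416 to 471 CPM in aged libraries. Adgre1, which marks macrophages, had a mean of 48.2 CPM in young and one of 39.0 CPM in aged cells. The part of these cells in the rise of the lysosomal genes was not tested, and in bulk RNA more cells of a type and more RNA per cell cannot be told apart.

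The cultured cells were then compared with fresh cells of the same age, averaging the 4 substrates. Fresh and cultured libraries carry different letters, so whatever a letter shared cannot be told apart from culture. In young cells 19 members rose and 13 fell, with a median of 0.15. In aged cells 13 rose and 22 fell, with a median of -0.27. 78.0% of the members were called in young cells, where 56.9% of all 13523 genes tested were (27.1% higher, 29.9% lower), and 85.4% in aged cells, where 62.4% of all genes were (29.9% higher, 32.5% lower). 22 members in young and 26 in aged cells did not overlap between fresh and cultured libraries, where 36.2% and 43.6% of all genes did not. Without the libraries numbered 3 and 6 the counts were 18 higher and 13 lower in young cells and 13 higher and 21 lower in aged cells. In those fits 53.0% of all genes were called in young and 57.1% in aged cells.

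13 members rose at both ages: all 13 that rose in aged cells and 13 of the 19 that rose in young cells. Another 13 fell at both ages: all 13 that fell in young cells and 13 of the 22 that fell in aged cells. Sqstm1 rose in young (0.36 ± 0.09) and fell in aged cells (-0.84 ± 0.08), and so did Hexa (0.38 ± 0.06 and -0.20 ± 0.06).

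Among the genes that rose was Ctsd (ENSMUSG00000007891, chromosome 7, 141929648 to 141941776). It measured 271, 237 and 248 CPM in fresh young libraries and 585 to 806 CPM (median 649) in the 11 cultured young ones (1.38 ± 0.07, adjusted p = 7.57e-17). In aged cells it went from 404, 450.0 and 424 CPM to 751 to 941 CPM (median 848) in 12 cultured libraries (0.98 ± 0.07, adjusted p = 6.65e-14). At both ages every cultured library lay above every fresh one. Glb1 behaved likewise, from 67.4, 53.4 and 44.2 CPM to 98.8 to 144 CPM in young cells (1.09 ± 0.11) and by 1.11 ± 0.11 in aged cells. The membrane proteins Lamp2 (0.62 ± 0.08 in young, 0.21 ± 0.08 in aged cells) and Laptm4a (0.80 ± 0.06 and 0.78 ± 0.06) rose too. The aged value of Lamp2 did not hold without any 1 of the 3 fresh aged libraries (adjusted p = 0.055 to 0.068). In young cells Asah1 rose by 1.06 ± 0.06 and in aged cells by 0.58 ± 0.06, and Lipa by 0.84 ± 0.08 and 0.61 ± 0.08.

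Ctsl stood at 0.02 ± 0.13, adjusted p = 0.901 in young and -0.14 ± 0.12, adjusted p = 0.345 in aged cells.

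Of the autophagy initiation genes 3 of 3 rose in young and 2 of 3 in aged cells, where Becn1 was not called. Of the 3 conjugation genes 1 rose and 1 fell at both ages: Atg12 rose, by 0.72 ± 0.12 in aged cells, Atg7 fell and Atg5 was not called. Wipi1, a phosphoinositide-binding protein of the forming membrane, went from 130.4, 154 and 140.0 CPM to 264 to 343 CPM in young (1.08 ± 0.09) and from 129.8, 132 and 111 CPM to 269 to 337 CPM in aged cells (1.30 ± 0.09). No cultured library overlapped with a fresh one. Map1lc3a (LC3A) went from 50.6, 43.3 and 43.2 CPM to 83.9 to 132 CPM in young cells (1.30 ± 0.12) and rose by 0.60 ± 0.12 in aged cells. Map1lc3b rose by 0.68 ± 0.09 and 0.47 ± 0.09, and Gabarapl1 by 0.70 ± 0.11 and 0.73 ± 0.11. Tfeb, at 44 counts in the fresh young and 12 in the fresh aged libraries, rose by 0.85 ± 0.34 in young cells and by 2.76 ± 0.44 in aged cells. Its cultured levels were 4.58 to 14.5 CPM in young and 8.22 to 17.6 CPM in aged libraries. The young value was lost when any 1 of 4 libraries was left out, with an adjusted p of up to 0.189. Tfe3 stood at 0.23 ± 0.09, adjusted p = 0.0406 in young cells, lost when any 1 of 6 libraries was left out (adjusted p up to 0.143), without the filter on low counts and without the libraries numbered 3 and 6, and at -0.06 ± 0.09, adjusted p = 0.575 in aged cells.

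Several other members fell. Gla (ENSMUSG00000031266, chromosome X, 133488898 to 133501875), with 2 motif cores in its promoter window, measured 85.7, 93.6 and 76.1 CPM in fresh young libraries and 10.5 to 24.1 CPM (median 18.5) in cultured young ones (-2.27 ± 0.13, adjusted p = 2.65e-15). In aged cells it went from 118, 118 and 122 CPM to 10.2 to 27.6 CPM (median 15.0) (-2.85 ± 0.13, adjusted p = 1.70e-18). All cultured libraries were below all fresh ones, by a wide margin. Ctss went from 20.6, 15.6 and 19.7 CPM to 1.27 to 7.92 CPM in young (-2.08 ± 0.29) and from 71.8, 76.6 and 68.9 CPM to 0 to 3.62 CPM in aged cells (-5.47 ± 0.27). In culture Ctss thus rested on 0 to 24 counts per library. Atg7 fell from 198, 168 and 164 CPM to 43.1 to 62.6 CPM in aged cells (-1.84 ± 0.09) and fell in young cells too (-1.02 ± 0.10). Mcoln1 fell by less in young (-0.46 ± 0.13) than in aged cells (-1.03 ± 0.13). Neu1 (-0.72 ± 0.16 in young, -1.43 ± 0.15 in aged cells), Grn (-0.44 ± 0.11 and -1.13 ± 0.11), Ctsz (-0.42 ± 0.06 and -1.08 ± 0.05) and Ctsb (-0.29 ± 0.04 and -0.92 ± 0.04) fell at both ages. The proton pump fell in 3 of 4 genes in young cells and in 4 of 4 in aged cells, there by 0.38 to 0.95. Lamp1 fell in aged cells (-1.80 ± 0.51, adjusted p = 0.00309), with overlapping libraries, and stood at -0.28 ± 0.56, adjusted p = 0.689 in young cells.

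The 9 genes with the printed motif matches went in both directions. In young cells Ctsd and Glb1 rose, Gla, Atg7, Mcoln1 and Atp6v0d1 fell, and Ctsa, Atp6v1a and Lamp1 did not pass the test. In aged cells Ctsd and Glb1 rose and the other 7 fell, Ctsa by 0.44 and Atp6v1a by 0.38 among them.

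**Figure D3:**
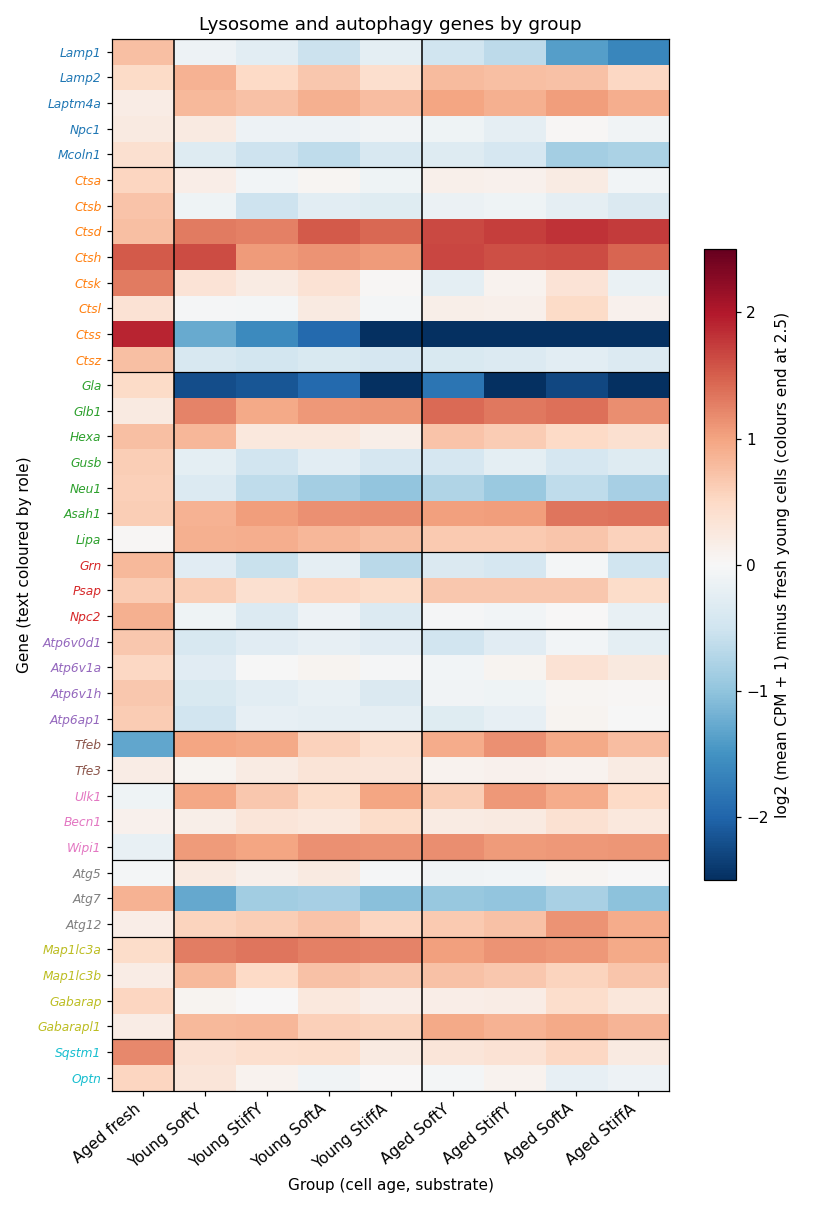
Mean level of each of the 41 genes in 9 groups relative to fresh young cells, as log2 (mean CPM + 1) differences, with gene names coloured by role, lines between roles and colours ending at 2.5. The fresh aged column is red for all cathepsins and proton pump genes, while the 8 cultured columns are blue for Gla, Ctss and Atg7 and red for Ctsd, Glb1 and Wipi1.

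Whether the response to culture differed between ages was tested as an interaction. It was lower in aged than in young cells for 25 members and higher for 1, Tfeb, with a median difference of -0.46 over the members and -0.01 over all genes. 63.4% of the members were called, where 20.6% of all genes were (10.5% higher, 10.1% lower). Without the libraries numbered 3 and 6 it was 24 lower and 1 higher, 23 of the 25 calls being shared, where 17.9% of all genes were called. This difference equals the ageing difference in culture minus that in fresh cells and uses the same fresh libraries as the comparisons above, so it is not separate evidence of them.

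The cathepsins had 7 of 8 lower responses. Ctss differed most (-3.39 ± 0.45, adjusted p = 9.32e-07), followed by Ctsk (-1.56 ± 0.26), which stood at 0.25 ± 0.20, adjusted p = 0.291 in young and fell by 1.31 in aged cells. Ctsh rose in young cells (1.23 ± 0.09) and stood at 0.06 ± 0.08 in aged cells, whose fresh level was already 139, 155 and 145 CPM (difference -1.17 ± 0.12). For Sqstm1, fresh young libraries at 255, 247 and 253 CPM went to 259.9 to 390.4 CPM (median 332), while fresh aged libraries at 549, 602 and 579 CPM went to 265 to 416 CPM (median 314). The ages, far apart when fresh, overlapped throughout in culture (difference -1.20 ± 0.12, adjusted p = 7.97e-09). Ctsb (-0.63 ± 0.06) and Ctsd (-0.40 ± 0.09) had smaller differences in the same direction, as did all 3 cofactors and 3 of 4 proton pump genes. Glb1 (0.01 ± 0.16, adjusted p = 0.984), Gabarapl1 (0.03 ± 0.16, adjusted p = 0.922) and Map1lc3b (-0.21 ± 0.12, adjusted p = 0.233) showed no called difference, nor did Ctsl (-0.16 ± 0.18), Tfe3 (-0.29 ± 0.13) or Lamp1 (-1.52 ± 0.80, adjusted p = 0.196). The Lamp2 difference (-0.40 ± 0.11, adjusted p = 0.00757) did not hold without fresh young library 2 (adjusted p = 0.072). That of Tfeb (1.91 ± 0.59, adjusted p = 0.0188) did not hold without fresh young library 3 (adjusted p = 0.054) or fresh aged library 2 (adjusted p = 0.091).

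**Figure D4:**
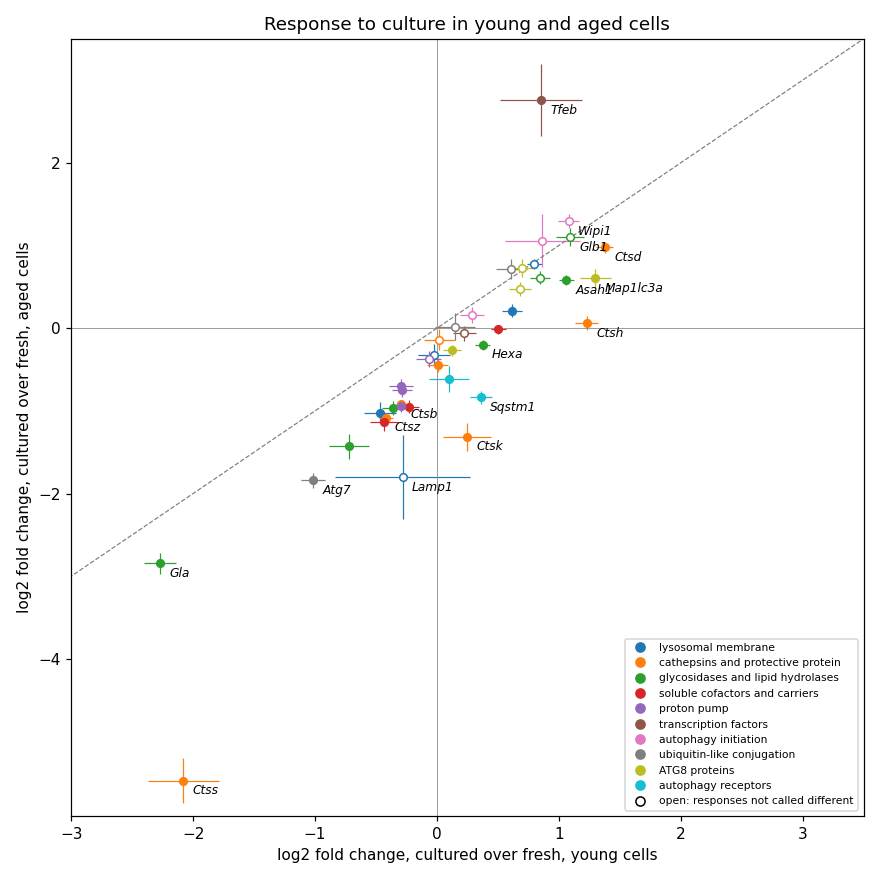
Log2 fold change of cultured over fresh cells for each of the 41 genes, young cells on the x axis and aged cells on the y axis, with bars of 1 SE and colours for roles. Filled points differed between ages in the interaction test: 25 of them lie below the dashed line of equal response and Tfeb lies above it.

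Around the members, culture raised 20 of 34 further hydrolases and lowered 6 in young cells, and raised 16 and lowered 10 in aged cells. Beside these and the counts below, 56.9% of all genes were called in young and 62.4% in aged cells. The GM2 activator gene Gm2a changed by 2.36 ± 0.12 (young cells) and 2.56 ± 0.12 (aged cells), and the cathepsin gene Ctsf by 4.21 ± 0.24 and 4.47 ± 0.25. Further proton pump subunits fell in 6 of 13 and rose in 1 in young cells, and fell in 11 of 13 in aged cells. Autophagosome formation genes rose in 8 and fell in 2 of 26 in young cells and rose in 10 and fell in 4 in aged cells. At both ages a smaller share of them was called than of all genes. Ulk2 was among those that rose (1.47 ± 0.23 and 2.36 ± 0.25). Further receptors and mitophagy genes rose in 6 and fell in 3 of 13 in young cells, and rose in 6 and fell in 4 in aged cells. Among them Calcoco1 rose by 2.01 ± 0.12 and 2.00 ± 0.12. The sorting list had 1 rise and 6 falls of 12 in young and 2 rises and 6 falls in aged cells. Flcn fell in young cells (-1.29 ± 0.10), and Rragd fell in aged cells from 34.3 to 1.35 CPM (-4.73 ± 0.36).

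The Nrf2 targets fell in 9 of 10 genes in young cells and in 10 of 10 in aged cells, where Hmox1 changed by -4.26 ± 0.10. Myeloid markers fell in 9 of 11 tested genes in young and in 11 of 11 in aged cells, where Cd68 went from 107 to 2.16 CPM. In aged cells on SoftA and on StiffA 7 of the 16 markers had 0 counts, among them Tyrobp, C1qa, Itgam and Cx3cr1 on both. The myeloid sum was 233 to 471 CPM in fresh and 24.2 to 71.6 CPM in cultured libraries. Endothelial markers fell in 7 of 8 genes in young and in 6 of 8 in aged cells, with 1 rise at each age. Fibroblast markers rose in 8 of 10 and fell in 1 in young cells, and rose in 6 and fell in 2 in aged cells. The interaction was lower in 7 of the 11 myeloid markers and in 9 of 10 Nrf2 targets. It was higher in 4 of 8 endothelial markers, and higher in 5 and lower in 3 of 10 fibroblast markers. The part of any of these lists in the members' changes was not tested.

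**Figure D5:**
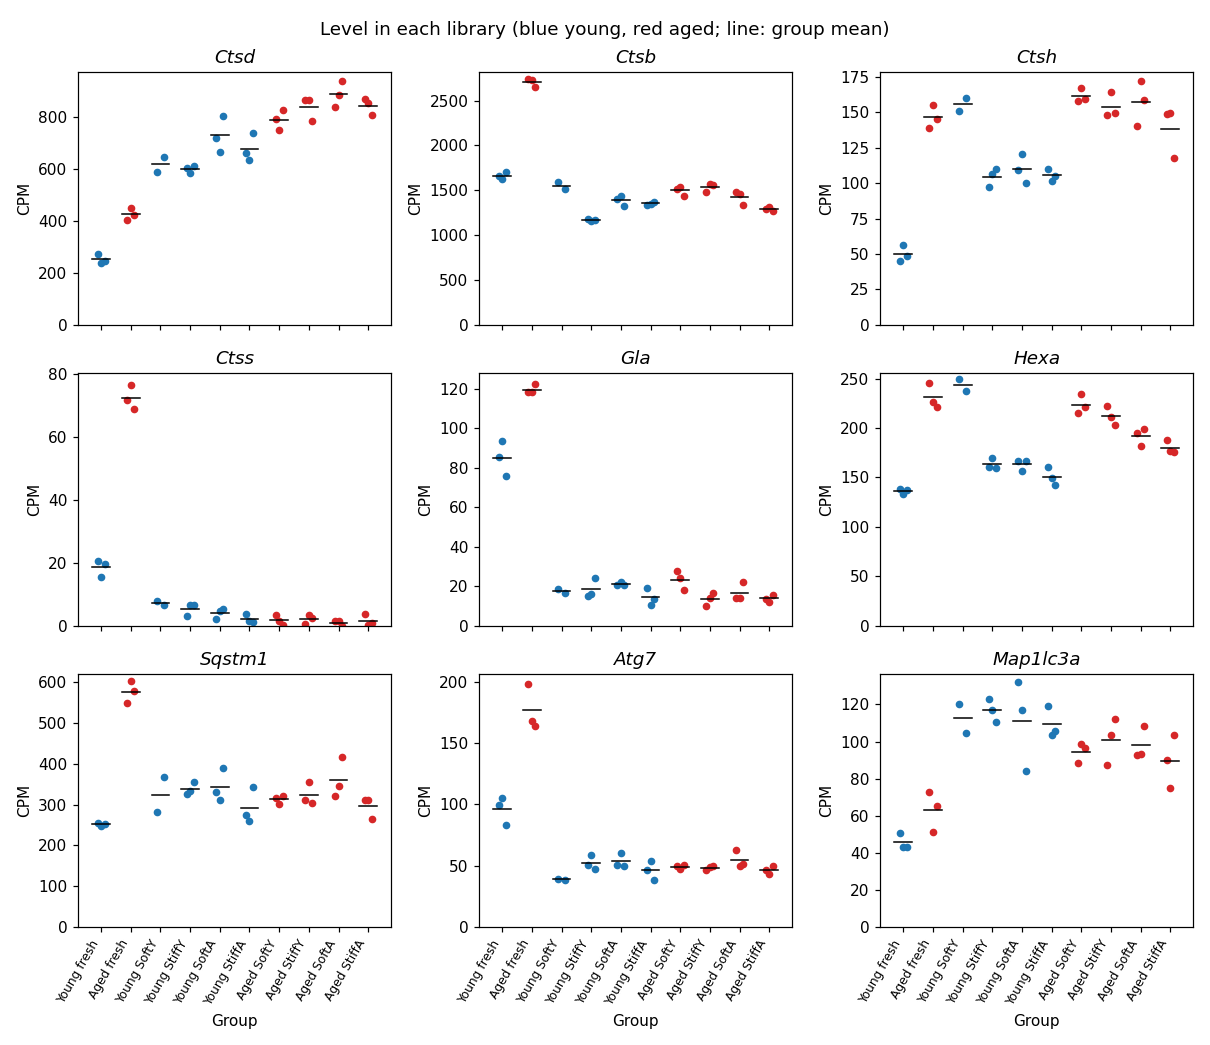
Level in CPM of 9 members in each library, by group, with young cells in blue, aged cells in red and a line at each group mean. Fresh aged libraries lie above fresh young ones for each of the 9 genes shown, while in culture Sqstm1 and Atg7 lie in the same range at both ages and Ctsd lies above its fresh levels.

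Cultured aged and cultured young cells were compared over the 4 substrates, which asks how much of the age difference was present after culture. The test took all cultured libraries as independent. Same-numbered libraries of the same age deviated together more often than others did. The p-values here, as in the other comparisons, take no account of what a number shared. 9 members were higher in aged cells and 3 lower, with a median of 0.07. 29.3% of the members were called, where 15.0% of all 12841 genes tested were (6.52% higher, 8.50% lower). All called changes but that of Ctss were under 0.38 in size, and no member separated all aged from all young libraries, as 0.732% of all genes did. The count depended on single libraries: it was 7 without young SoftY library 1 and 19 without young SoftA library 3. Without the libraries numbered 3 and 6 it was 24 (20 higher, 4 lower, 11 of the 12 shared), where 23.1% of all genes were called.

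Ctsh rose most, from 97.3 to 160.3 CPM (median 109.6) in young to 117 to 172 CPM (median 154) in aged libraries (0.37 ± 0.05, adjusted p = 2.13e-05). Ctsd was next, at 585 to 806 CPM (median 649) in young and 751 to 941 CPM (median 848) in aged libraries (0.35 ± 0.04, adjusted p = 7.82e-07). The ranges of both overlapped between ages. Atg12 (0.26 ± 0.08), Atp6v1h (0.26 ± 0.07), Atp6v1a (0.22 ± 0.07, adjusted p = 0.0387) and Glb1 (0.22 ± 0.06) rose as well, and with them Hexa, Laptm4a and Asah1 by 0.13 to 0.18. Ctss fell (-1.44 ± 0.38, adjusted p = 0.0108) between low levels, 1.27 to 7.92 CPM in young and 0 to 3.62 CPM in aged libraries. Map1lc3a (-0.24 ± 0.07) and Lipa (-0.20 ± 0.05) were the other members to fall. Without young SoftY library 1 the calls for Atg12 (adjusted p = 0.104), Atp6v1a (0.137), Glb1 (0.071) and Map1lc3a (0.086) were lost. Those for Atg12, Atp6v1a and Map1lc3a were also lost without any 1 of several other libraries. That for Lipa was lost without the libraries numbered 3 and 6 (adjusted p = 0.056). Sqstm1, which was 2.24-fold higher in fresh aged cells, stood at -0.01 ± 0.06, adjusted p = 0.93 here, and Ctsk at -0.22 ± 0.14, adjusted p = 0.308. Ctsb (0.07 ± 0.03), Ctsl (0.19 ± 0.09), Lamp2 (0.08 ± 0.05), Map1lc3b (-0.03 ± 0.06), Gabarapl1 (0.21 ± 0.07, adjusted p = 0.0535), Tfeb (0.24 ± 0.18) and Tfe3 (-0.11 ± 0.06) did not pass the test. Lamp1 stood at -0.78 ± 0.38, adjusted p = 0.186.

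In this comparison, in which 15.0% of all genes were called, 7 of 34 further hydrolases rose and 1 fell. Gaa (0.33 ± 0.05) and the glycosylasparaginase Aga (0.30 ± 0.04) were among those that rose. Of the further autophagosome formation genes 0 of 26 rose and 2 fell, a smaller share than of all genes. The conjugation enzyme gene Atg3 was among those that fell (-0.89 ± 0.23). Endothelial markers rose in 6 of 7 tested genes, with Cdh5 from 9.61 to 26.4 CPM, and their sum was 65.7 to 124 CPM in young and 90.5 to 182 CPM in aged cultures. Fibroblast markers fell in 9 of 10. The part of these in the members' changes was not tested.

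Stiffness was tested within each age over both kinds of ECM. Each substrate has its own library letter, so substrate and anything shared by a letter cannot be told apart. In young cells 4 members fell on stiff substrates and none rose at the threshold. 9.76% of the members were called, where 3.56% of all genes were (1.66% higher, 1.90% lower). No member separated all stiff from all soft libraries, as 1.50% of all genes did. Hexa (ENSMUSG00000025232, chromosome 9, 59446823 to 59472393) measured 250 and 237 CPM on SoftY and 167, 157 and 167 CPM on SoftA, against 161, 170.2 and 159.7 CPM on StiffY and 161, 149.6 and 142 CPM on StiffA (-0.34 ± 0.06, adjusted p = 0.00106). The SoftY libraries thus stood apart from the other young cultures. Ctsh (-0.32 ± 0.08, adjusted p = 0.0196), Lamp2 (-0.31 ± 0.08, adjusted p = 0.0193) and Ctsb (-0.22 ± 0.05, adjusted p = 0.00441) showed the same direction. Ctsh measured 151 and 160.3 CPM on SoftY and 97.3 to 121 CPM in the other 9 young cultures. The calls for both Ctsh and Lamp2 did not hold without young SoftY library 2 or without young StiffY library 1. That for Ctsh was also lost without young SoftA library 2 or young StiffA library 2, and that for Lamp2 without young StiffY library 3. Without the libraries numbered 3 and 6 there were 4 calls, 3 of them shared, where 5.01% of all genes were called. The one lost was Lamp2, at -0.15 (adjusted p = 0.208). Ctsh was also lost without the filter on low counts (adjusted p = 0.070).

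Of the other genes followed in young cells Ctsd (-0.07 ± 0.06), Ctsk (-0.21 ± 0.20), Ctsl (-0.13 ± 0.13), Ctss (-0.67 ± 0.47), Glb1 (-0.13 ± 0.09), Sqstm1 (-0.09 ± 0.09), Map1lc3b (-0.19 ± 0.08), Gabarapl1 (-0.02 ± 0.11), Tfeb (-0.13 ± 0.27), Tfe3 (0.06 ± 0.09) and Lamp1 (0.08 ± 0.55) did not pass. In aged cells edgeR called 0 of the 41 members, where 0.296% of all genes were called (0.00779% higher, 0.288% lower). 2 members had an unadjusted p under 0.05, both lower on stiff substrates: Gla (-0.53 ± 0.18) and Grn (-0.27 ± 0.11), named after their values were seen. DESeq2 and limma voom also called 0. Values of the genes followed in aged cells were -0.05 ± 0.04 for Ctsb, 0.01 ± 0.06 for Ctsd, -0.21 ± 0.12 for Ctsl, -0.13 ± 0.07 for Lamp2, -0.15 ± 0.08 for Glb1, -0.12 ± 0.08 for Sqstm1, 0.04 ± 0.08 for Map1lc3b and 0.07 ± 0.09 for Tfe3. The test of the difference between ages called 0 members with edgeR, DESeq2 and limma voom, 3 having an unadjusted p under 0.05 (Ctsb 0.17 ± 0.06, Hexa 0.26 ± 0.09 and Gusb 0.32 ± 0.13), against 0.787% of all genes called (0.319% higher, 0.467% lower). In young cells 1 of 4 tested myeloid markers fell on stiff substrates, Lyz2 (-0.93 ± 0.20). Of 7 tested endothelial markers 1 fell, Pecam1 (-1.46 ± 0.31), and 6 of 10 fibroblast markers fell. Their part in the changes was not tested.

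The age of the ECM was tested within each cell age over soft and stiff. In young cells Hexa fell on aged ECM (-0.35 ± 0.06, adjusted p = 0.0013). It was the 1 member called (2.44%), where 2.49% of all genes were (1.67% higher, 0.825% lower). No member separated the 2 kinds of ECM in all libraries, as 1.20% of all genes did. For Hexa the young ECM libraries included those on SoftY, which stood apart from the other young cultures. On stiff substrates Hexa lay between 142 and 170.2 CPM in all young libraries. Ctsd (0.21 ± 0.06, adjusted p = 0.0712) missed the threshold, as did Asah1 (0.19 ± 0.05, adjusted p = 0.0503), which is named after its value was seen.

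In aged cells 3 members rose and 3 fell on aged ECM. 14.6% of the members were called, where 7.44% of all genes were (4.14% higher, 3.30% lower). Asah1 (ENSMUSG00000031591, chromosome 8, 41793234 to 41827811), which splits ceramide into sphingosine and fatty acid, measured 476, 482 and 437 CPM on SoftY and 475, 471 and 471 CPM on StiffY. On SoftA it measured 582, 574 and 584 CPM and on StiffA 591, 592 and 580.2 CPM. All 6 aged ECM libraries lay above all 6 young ECM ones (0.33 ± 0.05, adjusted p = 8.51e-05), and this was the call that held whichever single library was left out. The proton pump genes Atp6ap1 (0.28 ± 0.08, adjusted p = 0.0332) and Atp6v0d1 (0.25 ± 0.07, adjusted p = 0.0343) rose as well. Mcoln1 (-0.46 ± 0.14, adjusted p = 0.038), Hexa (-0.22 ± 0.06, adjusted p = 0.0214) and Ctsb (-0.15 ± 0.04, adjusted p = 0.0343) fell. Atp6ap1 and Hexa did not overlap between ECM ages either, while Atp6v0d1, Mcoln1 and Ctsb did. In all 4 members separated the ECM ages, where 4.21% of all genes did. The count ran from 1 to 7 with 1 library left out: it was 1 without aged SoftY library 2 or aged StiffA library 2, 2 without aged StiffY library 3 or aged SoftA library 2, and 3 without aged SoftY library 1, aged StiffY library 2, aged SoftA library 3 or aged StiffA library 1. Without the libraries numbered 3 and 6 it was 6, of which 4 were shared, where 8.86% of all genes were called. Atp6v0d1 (0.18, adjusted p = 0.244) and Ctsb (adjusted p = 0.051) were lost there. Without the filter on low counts Atp6v0d1 (adjusted p = 0.154), Hexa (0.151) and Ctsb (0.139) were lost. Atp6v0d1 was lost with DESeq2 (adjusted p = 0.070) and Ctsb with upper-quartile factors (0.051). Not called in aged cells were Ctsd (0.10 ± 0.06), Ctsl (0.16 ± 0.12), Ctsk (0.20 ± 0.19), Lamp2 (-0.13 ± 0.07), Glb1 (-0.10 ± 0.08), Sqstm1 (0.05 ± 0.08), Map1lc3b (-0.07 ± 0.08), Gabarapl1 (0.00 ± 0.10), Tfe3 (0.06 ± 0.09) and Lamp1 (-0.93 ± 0.54). Endothelial markers rose in 4 of 7 tested genes on aged ECM, with Emcn from 7.69 to 21.1 CPM, and their sum went from 90.5 to 126 CPM on young ECM to 134 to 182 CPM on aged ECM. Their part in the changes was not tested.

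For the difference in the response to ECM age between cell ages edgeR, DESeq2 and limma voom called 0 members, with 2 members at an unadjusted p under 0.05 (Ctsb -0.18 ± 0.06 and Neu1 0.53 ± 0.25) and 0.0935% of all genes called (0.0234% higher, 0.0701% lower). In young cells Asah1 measured 409 to 487 CPM on young and 472 to 540 CPM on aged ECM, with overlapping libraries. A missed threshold does not show that the ages respond alike.

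The corner groups StiffA and SoftY differ in stiffness and ECM age together and use the same libraries as the tests above. In young cells Asah1 rose (0.29 ± 0.08, adjusted p = 0.0248) and Hexa (-0.69 ± 0.09, adjusted p = 1.14e-05), Ctsh (-0.56 ± 0.12, adjusted p = 0.00313) and Lamp2 (-0.44 ± 0.11, adjusted p = 0.0186) fell. 9.76% of the members were called, where 5.26% of all genes were (2.99% higher, 2.27% lower), and 17 members did not overlap between the groups, where 32.1% of all genes did not. Hexa was at 250 and 237 CPM on SoftY and 161, 149.6 and 142 CPM on StiffA. SoftY has 2 libraries here, and without its library 2 the 4 calls were reduced to 1, that of Hexa. Without young StiffA library 2 they were reduced to 2. The call for Asah1 was lost without any 1 of young SoftY libraries 1 and 2 and young StiffA libraries 2 and 3 (adjusted p = 0.054 to 0.290), with upper-quartile factors (0.053), without the filter on low counts (0.212) and without the libraries numbered 3 and 6 (0.069). That for Lamp2 was also lost without young StiffA library 1 (0.074). In aged cells Asah1 rose (0.35 ± 0.07, adjusted p = 0.00277) and Hexa fell (-0.30 ± 0.08, adjusted p = 0.0365), 4.88% of the members being called, where 4.21% of all genes were (2.24% higher, 1.97% lower). 14 members did not overlap, where 24.2% of all genes did not. The call for Hexa did not hold when any 1 of the 6 libraries was left out (adjusted p = 0.057 to 0.157), with upper-quartile factors (0.052), without the filter on low counts (0.244) or without the libraries numbered 3 and 6 (0.072). The direction of both genes was thus the same at both ages. Ctsb stood at -0.20 ± 0.07, adjusted p = 0.104 in young and -0.20 ± 0.06, adjusted p = 0.0709 in aged cells, and Lamp2 at -0.26 ± 0.10, adjusted p = 0.189 in aged cells. Sqstm1 (-0.15 ± 0.13 and -0.07 ± 0.12), Map1lc3b (-0.13 ± 0.13 and -0.03 ± 0.11) and Ctsd (0.13 ± 0.09 and 0.11 ± 0.08) did not pass at either age.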

How the data were processed

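RNA from 29 samples of cardiac fibroblasts was sequenced from 20 ng per library with a low-input kit, per the labels. The authors deposited raw read counts per Ensembl gene. STAR 2.7.8a and build mm39 are named per the submitters' processing notes, while the counting options, strand and annotation release are not stated there. Each fit used filterByExpr, TMM factors and edgeR 4.0.16 (R 4.3.3) with its quasi-likelihood F test and Benjamini-Hochberg adjustment over all genes. Fresh libraries were fitted alone (6), cultured ones together (23), and culture against fresh over all 29. The SE is the log2 fold change over the root of F. Members, lists and tests were chosen with earlier results of these data known. Named genes were, among members called with a mean of at least 10 CPM, the 6 largest changes per direction (4 for interactions), plus 13 genes followed in every comparison. Others were taken from the role lists. For the further pathway lists the rule was to name called genes with the smallest p. Alternatives were DESeq2 1.42.0, limma 3.58.1 voom, other scaling factors and filters, replicate blocks, 1 joint fit and leave-outs. Same-numbered samples of the same age deviated together more often than others did, though not all of them did. They were not treated as pairs, so the p-values take no account of what a number shared. The fits were tested on simulated data. A planned protein comparison was not run.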

Additional observations from a re-analysis of the deposited data

Results flagged for a closer look

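The test of whether the culture response differed between aged and young cells called 26 members, which is why they are listed here, as differences in log2 fold change, aged minus young. Among the cathepsins these were Ctss (-3.39), Ctsk (-1.56), Ctsh (-1.17), Ctsz (-0.66), Ctsb (-0.63), Ctsa (-0.45) and Ctsd (-0.40). The other hydrolases were Neu1 (-0.71), Gusb (-0.60), Hexa (-0.57), Gla (-0.57) and Asah1 (-0.48). Cofactors and carriers were Npc2 (-0.72), Grn (-0.70) and Psap (-0.52). Membrane and proton pump genes were Mcoln1 (-0.56), Lamp2 (-0.40), Atp6v0d1 (-0.65), Atp6ap1 (-0.46) and Atp6v1h (-0.41). Autophagy genes were Sqstm1 (-1.20), Atg7 (-0.82), Optn (-0.72), Map1lc3a (-0.70) and Gabarap (-0.40). Tfeb (1.91) was the 1 gene with a higher response in aged cells, from 12 counts in the fresh aged libraries.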

How the results depend on the processing

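The precision rests on library totals of 1192668 to 3275089 counts and 2 or 3 libraries per group. Of 208 named values 82 were called. Over 1943 alternatives of called values 0 had the other sign and 122 were no longer called. Over 2937 alternatives of the others 54 were called and 189 had the other sign. Members called with 1 library left out ran from 25 to 29 for fresh ageing, 25 to 32 and 33 to 35 for culture in young and aged cells, 20 to 26 for the difference between them and 7 to 19 for cultured ageing. They ran from 2 to 5 and 0 to 0 for stiffness in young and aged cells, 1 to 3 and 1 to 7 for ECM age, 0 to 0 for both substrate interactions, and 1 to 4 and 1 to 2 for StiffA over SoftY. Apart from the fits with replicate blocks, which are given in the next paragraph, counts that moved by over 1.5 times otherwise were these. The cause was not tested. StiffA over SoftY in aged cells gave 1 with upper-quartile factors and 6 without the libraries numbered 3 and 6, where 7.61% of all genes were called. The ECM interaction gave 1 with no filter on low counts and 2 without those libraries, where 1.68% of all genes were called. ECM age in young cells gave 2 with a mean of at least 10 CPM, 3 with limma voom and 2 without those libraries, where 3.41% of all genes were called. Cultured ageing gave 24 without those libraries.

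With the replicate block from the titles, the fits called 27 members for fresh ageing, 12 for cultured ageing, 5 for stiffness in young cells, 9 for ECM age in aged cells and 3 for StiffA over SoftY in aged cells. For fresh and cultured ageing the block joined young and aged libraries of the same number, whose deviations had a median correlation of -0.073. It cannot account there for what libraries of the same age and number share, so those counts do not test this. For the other comparisons the block was set within each age. With the block from the library names ECM age in young cells gave 3 and StiffA over SoftY in aged cells 4. Of the named values that were called, the block from the titles lost that of Asah1 for StiffA over SoftY in young cells (adjusted p = 0.054) and no other. Correlations of same-numbered samples' deviations by title ran from -0.39 to 0.57 in young cells (18 of 26 pairs over 0.1) and from -0.055 to 0.39 in aged cells (18 of 30). By library name they ran from -0.11 to 0.57 in young cells (21 of 26). Pairs with different title numbers were over 0.1 in 14 of 52 in young and 3 of 60 in aged cells. By library name it was 11 of 52 in young cells. 9 of 14 young and 13 of 15 aged libraries correlated best with their own title number, and 10 of 14 young ones with their own number in the library name.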
